A study of Epimedium pseudowushanense with 3 samples.

Results

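A set of 132 abundant transcripts in seeds of Epimedium pseudowushanense, a perennial medicinal herb of the barberry family, was more plentiful once the embryo had grown and stayed near that higher level in germinating seeds. The set was chosen by its measured values from 178603 assembled transcripts. A transcript belonged to it if its mean over the 3 libraries was at least 100 RPKM (mapped reads scaled to transcript length and to the library's total), if log2(RPKM + 1) was higher by at least 1 in the middle library than in the first, and if the germinating library differed from the middle one by less than 1 on the same scale. All 3 columns of the data went into this choice, so the levels and differences of the set are a description and carry no test.

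RNA sequencing was done on whole seeds, with 1 library for each of 3 stages. The first stage was the time when the embryo began to grow, the middle stage was reached when the embryo exceeded 0.5 of the seed in length, and the last was germination. The labels name no treatment, no seed age and no cultivar, and they do not say whether seeds were pooled. Without a second library at any stage, every difference given here rests on 2 single libraries, with no replicate behind either, and cannot be separated from a difference between seed lots or preparations.

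Seeds of this plant are shed with a small embryo that must grow inside the seed before germination is possible, and growth together with a physiological block to germination is called morphophysiological dormancy. Abscisic acid is the hormone that maintains dormancy and gibberellins promote germination, and the study looked for genes of both hormones over this period. During embryo growth and germination, seeds in general draw on stored protein, oil and carbohydrate and build new cytoplasm and cell walls. A whole seed holds embryo, endosperm and seed coat, so a higher value can come from more cells of a tissue or from more RNA per cell, which cannot be told apart in these libraries. The file gives assembly identifiers without gene names, so the transcripts are described by level and pattern, and only 2 are named.

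On a log scale the full range of the set was widest at the first stage. The rule kept low levels out of the middle and germinating libraries but not out of the first, so this is in part fixed by the choice. At the start of embryo growth the 132 transcripts ranged from 4.99 to 1581 RPKM, with a median of 67.4 RPKM and quartiles of 45.0 and 128 RPKM. At the middle stage they ranged from 91.8 to 3890 RPKM with a median of 208 RPKM, and in germinating seeds from 112 to 4335 RPKM with a median of 290 RPKM. The middle library thus had a median 2.78 times as high per transcript as the first, and the quartiles of this ratio were 2.41 and 4.50. A level of 100 RPKM was reached by 52 of them in the first library, by 130 in the middle library and by all 132 in the germinating library.

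**Figure D1:**
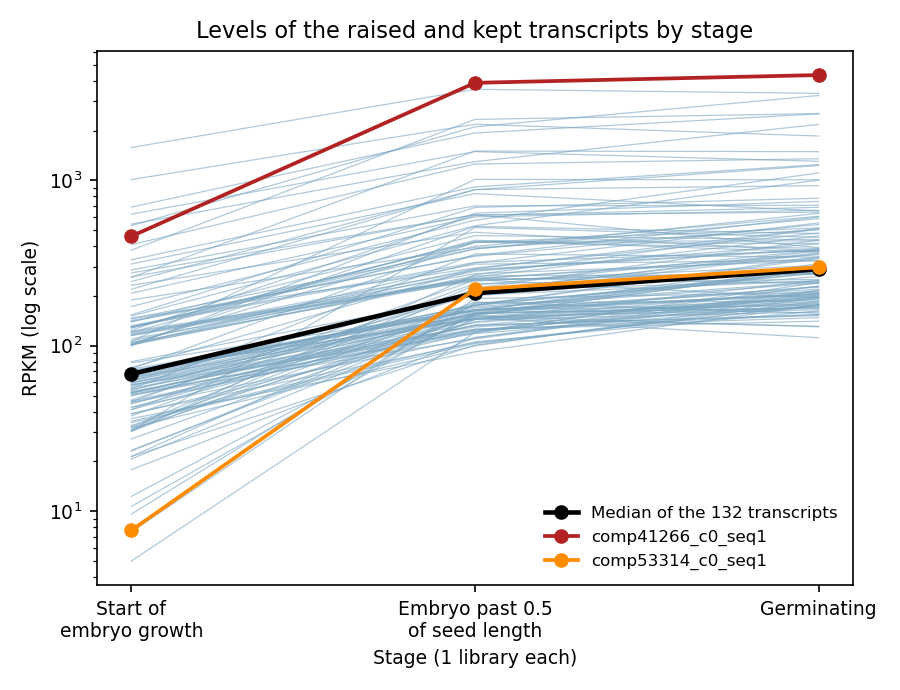
RPKM on a log scale (vertical) of each of the 132 transcripts in the 3 single libraries (horizontal), 1 thin line per transcript, with the median in black and the 2 named transcripts in colour. The median goes from 67.4 to 208 to 290 RPKM. The lines span a wider range at the first stage than later, which is in part fixed by the rule.

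The transcript with the highest mean, comp41266_c0_seq1, stood at 459, 3890 and 4335 RPKM in the first, middle and germinating libraries. Its rank among all transcripts went from 114 at the first stage to 4 in both later libraries. The gain in log2(RPKM + 1) was 3.08 from the first to the middle library and 0.16 from there to germination. Nearly all of its difference between the ends of the series therefore lay in the first step. The labels do not say whether the embryo grew further after the middle stage.

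The transcript with the greatest first-step difference, comp53314_c0_seq1, stood at 7.65, 220 and 298 RPKM in the same order. These values give a gain of 4.67 in log2(RPKM + 1) at the first step and of 0.44 at the last. In linear terms the middle value was 28.7 times the first, and the rank went from 7822 to 344 and then to 291.

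The set came from a wide range of starting levels, and 80 of the 132 transcripts were under 100 RPKM at the first stage. At the first stage 4 transcripts were under 10 RPKM, 35 lay between 10 and 50 RPKM, 41 between 50 and 100 RPKM, 46 between 100 and 500 RPKM and 6 at 500 RPKM or more. The 4 weakest had medians of 7.57, 187 and 226 RPKM over the 3 stages, and their median ratio of middle to first was 25.0. The 35 that started between 10 and 50 RPKM went from a median of 32.9 to 151 and 198 RPKM. These groups differ by their starting level, which enters the ratio itself, so the greater ratios of the weaker ones are in part fixed by the grouping.

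Those that started at 50 to 100 RPKM had medians of 61.7, 163 and 220 RPKM over the 3 stages. Those that started at 100 to 500 RPKM had medians of 132, 423 and 514 RPKM. The 6 most plentiful at the start went from a median of 658 RPKM to 2021 and 2355 RPKM, and the one of them with the highest mean had 1581, 3555 and 3359 RPKM. In that one the middle and germinating values were close, and both were more than 2 times the first.

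The size of the first step was moderate in most of the set. The first-step difference in log2(RPKM + 1) was between 1 and 1.5 in 69 of the 132 transcripts (52.3%), between 1.5 and 2 in 27, between 2 and 3 in 25, between 3 and 4 in 6, and 4 or more in 5. Its median was 1.46, against 0.51 over all 787 transcripts with a mean of at least 100 RPKM. The rule set a minimum of 1 for the set, so its median had to be the higher of the pair. The middle value was at least 4 times the first in 36 transcripts, at least 8 times in 11 and at least 10 times in 7.

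"Kept high" covered both level and slowly climbing transcripts. In 111 of the 132 transcripts (84.1%) the germinating value was above the middle one, and in 21 it was below. The last-step difference in log2(RPKM + 1) ranged from -0.66 to 0.99 with a median of 0.38. The median was 0.09 over the 787 abundant transcripts, and 0.57 over the 199 of them that were higher by at least 1 at the first step. Since the rule bounded the last step of the set on both sides, these medians are not on equal terms. The medians of the 787 and of the 199 were also above 0, so most transcripts of each group were higher at germination too. A climb at the last step was therefore not particular to the set. In the set the last-step difference was within 0.25 of 0 in 47 transcripts and within 0.5 in 78. A further 53 were higher by 0.5 up to 1, and 1 was lower by more than 0.5, with 276, 620 and 392 RPKM over the stages. Thus 40.2% of the set gained 0.5 or more again at germination without reaching the bound of 1.

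**Figure D2:**
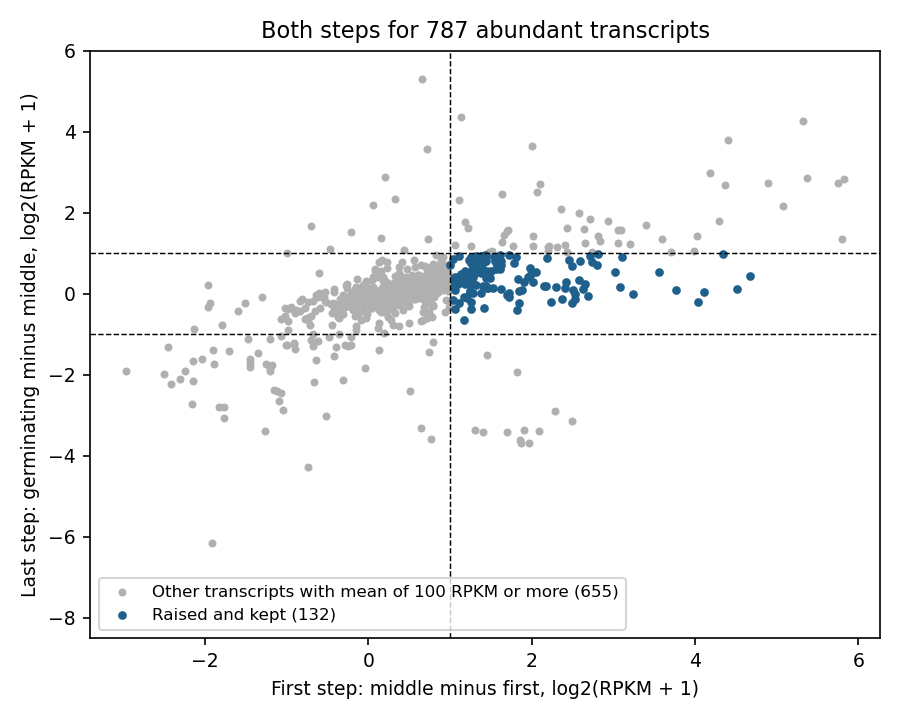
Difference in log2(RPKM + 1) at the first step (horizontal) against that at the last step (vertical) for the 787 transcripts with a mean of at least 100 RPKM, with the 132 of the set in blue and dashed lines at the bounds of 1 and -1. Most blue points lie above 0 on the vertical axis, 111 of 132, as do most of the other points, whose median is 0.04. The points of the set crowd against the bound at 1 on the horizontal axis. Both axes use the middle library.

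The limits of the rule cut through a continuous range. The lowest first-step difference in the set was 1.00 (147, 295 and 481 RPKM), and the nearest transcript left out had also 1.00 when rounded (72.3, 145 and 158 RPKM). Within 0.1 of that bound, 11 transcripts lay inside and 27 outside. The greatest last-step difference in the set was 0.99 (4.99, 121 and 241 RPKM) and the nearest left out was 1.03 (81.5, 229 and 467 RPKM). Within 0.1 of that bound 16 lay inside and 7 outside. By mean level the lowest of the set was at 100.1 RPKM and the nearest left out at 99.7 RPKM, with 10 transcripts from 100 to 110 RPKM inside and 21 from 90 to 100 RPKM outside.

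The set took up a growing part of the summed RPKM. The rule required each transcript to gain at the first step, so the rise from the first to the middle library follows from the choice. Its summed RPKM was 16813, 54924 and 66928 in the first, middle and germinating libraries. As a share of the summed RPKM of each library this was 3.12%, 8.77% and 10.9%. A share of summed RPKM is per length of transcript and is not a share of reads. The sum of the set was 3.27 times as high at the middle stage as at the first and 1.22 times as high at germination as at the middle stage. The 10 transcripts with the highest means held 38.6%, 39.3% and 36.2% of the sum at the 3 stages, so that most of it came from the remaining 122 in each library.

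**Figure D3:**
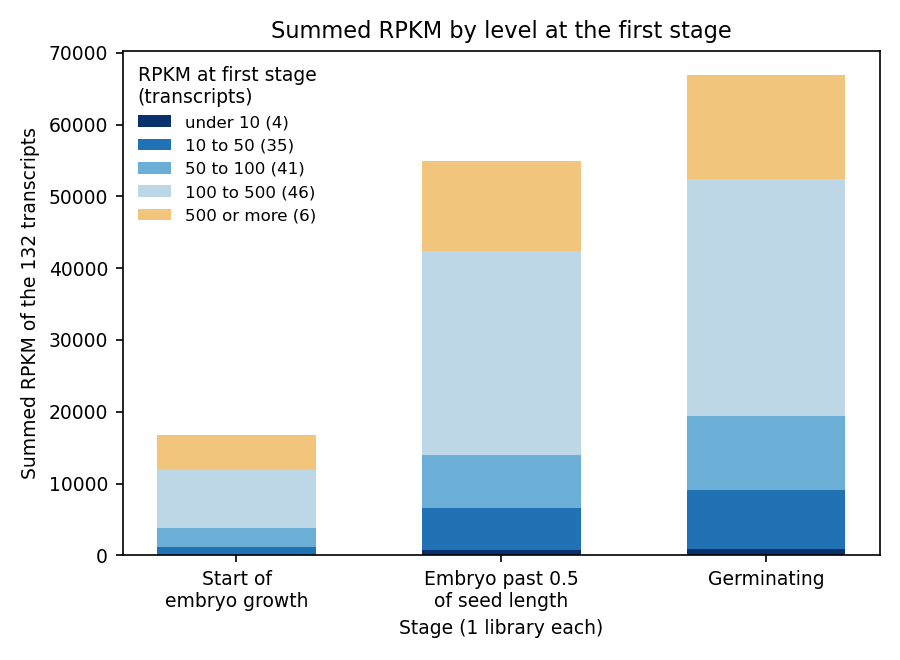
Summed RPKM of the 132 transcripts (vertical, from 0) in each of the 3 libraries, stacked by the level that the transcripts had at the first stage, with the number of transcripts in brackets. The bars reach 16813, 54924 and 66928 RPKM, and in each of them the transcripts that started at 100 to 500 RPKM form the tallest block.

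Between the first and the middle library the sum of the set was higher by 38111 RPKM, while the sum over all transcripts was higher by 87643 RPKM. Abundant transcripts that were not higher by 1 at the first step summed to 25434 RPKM less at the middle stage. Of that, the single most abundant transcript of the seed accounted for 17143 RPKM, from 57185 to 40042 RPKM. From the middle to the germinating library the whole sum was lower by 10951 RPKM and the sum of the set higher by 12004 RPKM.

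More of the set also stood among the most abundant transcripts of the seed in the later libraries, which again follows in part from the required gain at the first step. Of the 50 most abundant transcripts of each library, the set supplied 2 in the first library, 11 in the middle library and 16 in the germinating library. Of the 100 most abundant, the numbers were 6, 17 and 22. At the middle stage 33 transcripts were among the 100 most abundant that had not been so at the first stage, and 11 of these 33 were of the set. The median rank within the library went from 978 to 367 and 301.

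The order of the transcripts within the set changed less at the last step than at the first. Spearman's rho of the RPKM values over the 132 transcripts was 0.78 between the first and middle libraries, 0.90 between the middle and germinating libraries, and 0.73 between the first and germinating libraries. These coefficients describe transcripts that share libraries and were chosen for a small last step, so the higher middle value is in part fixed by the choice.

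Of the 787 transcripts with a mean of at least 100 RPKM, 199 (25.3%) were higher by at least 1 at the first step, against 27.3% of the 39729 that reached 1 RPKM in either of those libraries. The 132 that were then kept made up 16.8% of the 787, and 55 were higher again by at least 1 at germination and 12 lower again. The order of these numbers depended on the bound: with a last-step bound of 0.5, 78 were kept, 108 were higher again and 13 lower again. Since the rule used these differences, the percentages describe the choice and support nothing.

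The 55 transcripts that were higher at both steps had started lower. Their medians were 18.5, 125 and 413 RPKM, against 67.4, 208 and 290 RPKM in the kept set, so the kept set was the higher one at the first and middle stages and the lower one at germination. The 12 that were lower again had medians of 223, 716 and 73.4 RPKM and 11 of them lay in germinating seeds below the lower quartile of the kept set, while the highest was at 206 RPKM. The ranges of the kept and twice-higher transcripts overlapped at every stage.

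Staying high after the first step was about as frequent at 10 to 100 RPKM as above. In that class 1145 of 6598 transcripts were higher by at least 1 at the first step and 758 of these were kept, which is 66.2% of those raised and 11.5% of the class. At 100 RPKM or more the same share of those raised was 66.3%. In the class of 1 to 10 RPKM, 1204 of 3164 raised ones were kept, or 38.1% of those raised and 7.13% of the 16889 in the class. Of the raised, 55.0% were lower again at germination, and 390 of the 3164 stood at 0 there. The germinating library had 87582 transcripts above 0, against 134657 in the first and 148343 in the middle library. How far this drop bears on the weak class was not tested. Under the 4 rescalings described next, the share kept lay between 57.6% and 64.5% at 100 RPKM or more, between 55.4% and 60.4% at 10 to 100 RPKM, and between 33.1% and 34.7% at 1 to 10 RPKM. The difference between the weak class and the others had the same direction in all of them and was not tested, since weak values rest on few reads.

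The number of transcripts in the set depended on how the libraries were set against each other. The median first-step difference over transcripts that reached 1 RPKM in any library was 0.37 as deposited, and rescaling moved it by -0.15 to -0.21. The median of the set itself moved further, by -0.22 to -0.31. That of all transcripts with a mean of at least 100 RPKM moved nearly alike, by -0.21 to -0.31, so the further move was not particular to the set. With median-of-ratios factors 95 of the 132 transcripts still met the rule, with trimmed means 87, with equal sums 103, and with median ratios over transcripts of at least 10 RPKM 84, joined in that setting by 7 others. A rescaling shifts all transcripts of the set nearly alike, and the smallest first-step difference in the set over the 4 rescalings was 0.69. A core of 76 transcripts (57.6%) met the rule as deposited and under all 4. The core had medians of 61.6, 235 and 352 RPKM over the stages, with a median first-step difference of 1.84 as deposited. Every rescaling lowered the first step of the set, so meeting the rule under all 4 required a larger one, at least 1.31 in the core. The greater median of the core thus follows from its selection.

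**Figure D4:**
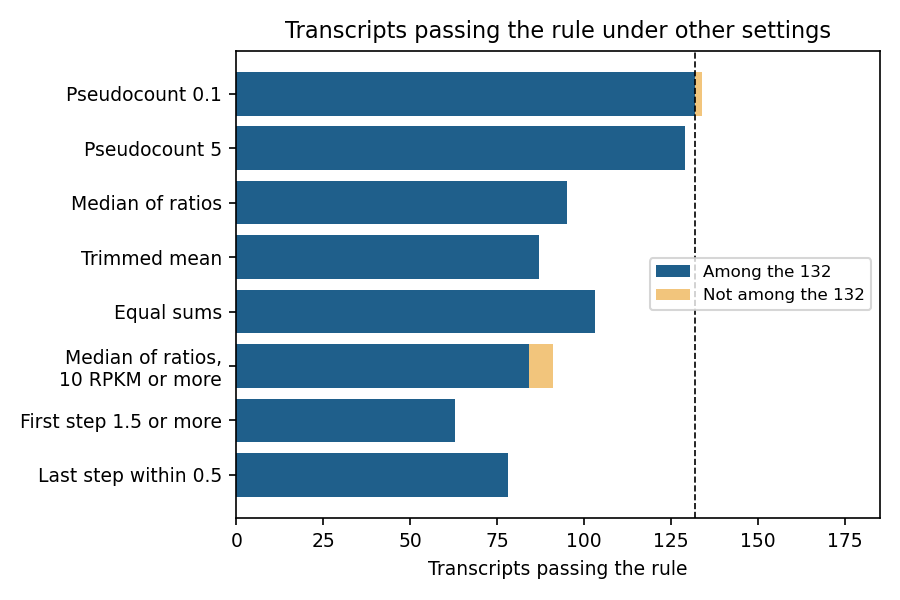
Number of transcripts that meet the rule (horizontal) under 8 other settings, split into those of the 132 (blue) and others (yellow), with a dashed line at 132. Rescaling leaves between 84 and 103 of the 132, the pseudocounts leave at least 129, and a first step of 1.5 or a last step within 0.5 leave 63 and 78.

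Counting error could be sized only under an assumption. Depth in reads is not given by the file, but the number of values per interval dropped by 2.89 times in the first library and 2.95 times in the middle one between 0.26 to 0.28 RPKM and 0.30 to 0.32 RPKM, as it would if 1 counted read were worth up to about 0.3 RPKM in the shortest transcripts. The drop in the germinating library was smaller, at 1.78 times. If 0.3 RPKM per read is taken for every transcript, the lowest value of the set corresponds to 16.6 counted reads. The 95% interval of the log2 ratio of middle to first, for counting error alone, was then at most 0.71 to either side, with a median of 0.22. Lengths are not known, and a longer transcript holds more reads at the same RPKM. On that assumption the count is a lower bound and the interval width an upper one. The rule required a first-step difference of at least 1, so this width describes precision and does not support the difference. Differences between seeds or preparations are not covered by this interval. The steps between low values, which mark what 1 read is worth and so the relative depth, were equal in size in the first and middle libraries (ratio 1.00) and 1.07 times that size at germination.

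The identifiers hold a further trait that the rule did not use. Identifiers of this form carry a component number, and transcripts with the same number were placed in 1 cluster by the assembler. A total of 13 of the 132 transcripts (9.85%) shared theirs with at least 1 other transcript, against 8.24% of the other 655 abundant transcripts and 1.26% of all. These 13 had 20 such partners, none of which was in the set. Of the 20 partners, 4 were also higher by at least 1 at the first step. This is not above the 27.3% of the 39729 transcripts that reached 1 RPKM in the first or middle library. All 4 were then kept. Among all raised transcripts 38.1% were kept at 1 to 10 RPKM and 66.2% at 10 to 100 RPKM, and 4 are too few to compare. By any amount, 10 of the 20 were higher at the middle stage, and the median level of the 20 at that stage was 8.07 RPKM. Transcripts with means of 1 to 10 and of 10 to 100 RPKM had median first-step differences of 0.19 and 0.27. Most of those were therefore higher at the middle stage too, and 10 of 20 is not above them.

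The partners followed the transcripts of the set in some cases and not in others. A transcript with 23.3, 145 and 182 RPKM had a partner with 17.0, 105 and 123 RPKM, which missed the set by its mean. Another with 122, 255 and 339 RPKM had a partner with 35.8, 98.4 and 130 RPKM. In contrast, a transcript with 64.4, 165 and 277 RPKM had a partner with 412, 313 and 125 RPKM, which was lower at each stage than at the one before. Whether reads were shared between such partners was not tested.

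The set resembled other abundant transcripts in its identifiers. The number after "seq" tells apart the sequences that the assembler wrote for a component. It was above 1 in 17 of the 132 transcripts (12.9%), in 92 of the other 655 abundant transcripts (14.0%) and in 5.02% of all transcripts. A sequence numbered 1 can also come from a component with several, so these are not the shares of such components. The part of the identifier before "seq" differed between all 178603 transcripts. Any further sequences under the same name are therefore absent from these values. Component numbers ran from 12120 to 53373 with a median of 40264 in the set and from 12087 to 53363 with a median of 40198 in the other abundant transcripts, against a range of 1 to 190361 over the whole assembly.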

How the data were processed

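The authors deposited 1 table of RPKM values to 2 decimals, per the file name, with 1 column for each library, and the columns were matched to stages by the library titles in the labels. Per the submitters' processing notes, R 3.1.0 was used. How the transcripts were assembled, and how reads were aligned, counted and filtered, is stated in none of the sources used here.

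The values were used as deposited, with Python 3.11.15, pandas 2.3.3 and NumPy 2.4.6, and differences were taken on log2(RPKM + 1). With 1 library per stage no test was run. The members and the rules were chosen with earlier results of these data known. The transcripts named are the one with the highest mean and the one with the greatest first-step difference.

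Scaling factors used transcripts with a mean of at least 1 RPKM, because with weaker ones the trimmed-mean factor missed the simulated factor by more than 0.1 in log2. Trimming took 30% of log ratios and 5% of levels from each end. The rule and the factors were tested on simulated data. These held counting noise only and few changed transcripts, all of them raised and kept. The rule was applied there after dividing by the true scale. The simulation therefore does not show how the factors behave where many transcripts change, as in these libraries. Since RPKM is relative to the total of a library, 1 transcript with a large share of reads lowers the rest.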

Additional observations from a re-analysis of the deposited data

How the results depend on the processing

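Of 60 recomputed values, 48 stayed within 1.5 times of those reported, 12 moved further and 0 changed sign. Most of the 60 are counts or shares, which cannot change sign. The 48 include the shares under rescaling, which cannot move, so this tally was in part fixed in advance. The number of transcripts meeting the rule was 87 with trimmed means, 63 with a first step of at least 1.5, 78 with a last step within 0.5, 263 and 62 with a mean of at least 50 and 200 RPKM, and 2722 with no minimum. Transcripts higher at both steps numbered 108 with the bound of 0.5, more than the 78 kept there, 101 and 24 at 50 and 200 RPKM, and 550 with no minimum, and those lower again 20 at 50 RPKM and 7588 with no minimum. These limits admit or remove transcripts by construction. The median first-step difference was 1.47 and 1.41 with pseudocounts of 0.1 and 5, 1.23 with median-of-ratios factors, 1.18 with trimmed means, 1.25 with equal sums and 1.15 with median ratios at 10 RPKM or more, a setting added after the data were seen. In the last 4 settings the median last-step difference was 0.46, 0.43, 0.41 and 0.30, and with a pseudocount of 0.1 it was 0.39. Without the most abundant transcript the shares of summed RPKM were 3.49%, 9.36% and 11.5%, and rescaling leaves these shares as they are by construction. No paired analysis was possible because each stage has 1 library, and for the same reason no replicate could be left out.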
